A study of Homo sapiens with 6 samples.

Results

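The regions described here are stretches of the genome that stood out as open chromatin in 22Rv1 cells at 0 h and for which no peak was listed at 1 h or at 24 h. There are 871 of them among the 167726 regions formed by joining the peaks of 6 ATAC-seq libraries wherever these overlapped by at least 1 bp, on the 22 autosomes and X. They were chosen by the deposited folds and by the presence of peaks themselves. Within each list the peaks were ranked by fold over local background, and a region had to reach the 50th percentile in both 0 h lists and to be absent from all 4 later lists. Its absence at 1 h and 24 h and its strength at 0 h are therefore what defines it, and these values are given as a description without a test. The regions with a percentile of at least 50 in both 0 h lists, called prominent below, number 52130, so 1.67% of them met the rule.

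ATAC-seq uses a transposase to cut and tag accessible DNA, and a peak is a stretch with more tags than its surroundings. 22Rv1 cells come from a human prostate cancer and are an established line, grown here with fetal bovine serum. Each of the 6 libraries has the label FOXA1_dTAG and a time of 0, 1 or 24 h, 2 for each time, so the 0 h reference group carries the tag as well. A protein fused to a dTAG can be sent to degradation by adding a small molecule that binds the tag. The molecule, its dose, the clonal origin of the tagged line and whether 0 h cells received a vehicle are not given in the sources used here, and the level of FOXA1 was not analysed here. Nor do the labels tell whether the replicates are separate cultures, and p-values then measure only the spread between these libraries, which may be technical.

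FOXA1 is a forkhead pioneer factor: it binds its motif in closed chromatin and helps to open it. In luminal prostate cells it occupies mostly enhancers, where it prepares sites for the androgen receptor and other factors. Removing it is a way to ask which open sites need it continuously, and sampling at several times asks which change early and which late. No label among the 6 libraries names an untagged or time-matched control. Effects of the molecule or of time therefore cannot be told apart from loss of FOXA1 here.

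The 6 lists held between 101755 and 125396 peaks. The background depth recovered from the lists was 10.5 and 8.29 tags per kb in the 0 h libraries, 8.14 and 8.625 in those of 1 h, and 7.35 and 7.06 in those of 24 h. It was thus lowest at 24 h, while 0h replicate 2 lay between the 1 h libraries. A region without a peak is one that did not pass the caller's q threshold of 0.05, and it is not shown to be closed.

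At 0 h the 871 regions had folds of 6.24 to 18.8 in 0h replicate 1, with a median of 8.58. In 0h replicate 2 the folds ran from 6.58 to 18.1, with a median of 8.50. The median within-list percentiles were 71.2 and 66.6, and the median −log10 q values were 17.1 and 13.1. The pileup, the number of tags over the summit, was 16 to 89 in replicate 1 (median 25) and 12 to 60 in replicate 2 (median 17). Each library had its own limit for listing a peak. At the commonest background, that limit was a fold of 2.92 and 2.94 at 1 h and of 3.37 and 3.06 at 24 h, or 5 to 6 tags. Taking the background of each region at 0 h and scaling it to the later library, the highest fold needed in any of the 4 later libraries was 2.29 to 3.41, with a median of 3.37. The mean 0 h fold was 1.97 to 5.47 times that limit (median 2.67), and it was at least 2 times the limit in 853 regions (97.9%) and at least 3 times in 273 (31.3%). Peaks shorter than the caller's minimum length are not listed either, so this ratio is not a strict bound on the fall.

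Scaling the mean 0 h pileup of each region by the commonest background of each later library gives an estimate of the tags that an unchanged region would have held. For 1h replicate 1 this was 16.0 to 83.2 tags (median 23.6), and for 1h replicate 2 it was 15.8 to 82.1 (median 23.3), where 6 tags were needed at the commonest background. For 24h replicate 1 it was 12.4 to 64.2 tags (median 18.2) against 6 needed, and for 24h replicate 2 it was 11.0 to 57.1 (median 16.2) against 5. The tags needed are those at the commonest background, on which 51.3% of the regions lay in 0h replicate 1 and 56.8% in 0h replicate 2; the others stood on a higher background and needed more. As the 0 h pileups are part of what chose the regions, these values do not test the part of depth in the missing peaks. The scaling also takes pileup to stand to background alike in all libraries. Over all regions with a peak in all 6, the median pileup over the commonest background averaged 23.5 at 0 h, 20.5 at 1 h and 23.1 at 24 h. The 0 h libraries differed, so these averages do not establish a fall at 1 h. More than 1 Mb from the regions described here, the medians were 20.4 and 28.3 at 0 h over 45151 such regions. Those of 1 h, 21.4 and 22.5, and of 24 h, 23.1 and 25.0, lay between them. At distances of 2 to 250 kb, 1h replicate 1 lay below both 0 h libraries. The estimates above use the mean over both 0 h libraries and so carry their difference.

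**Figure D1:**
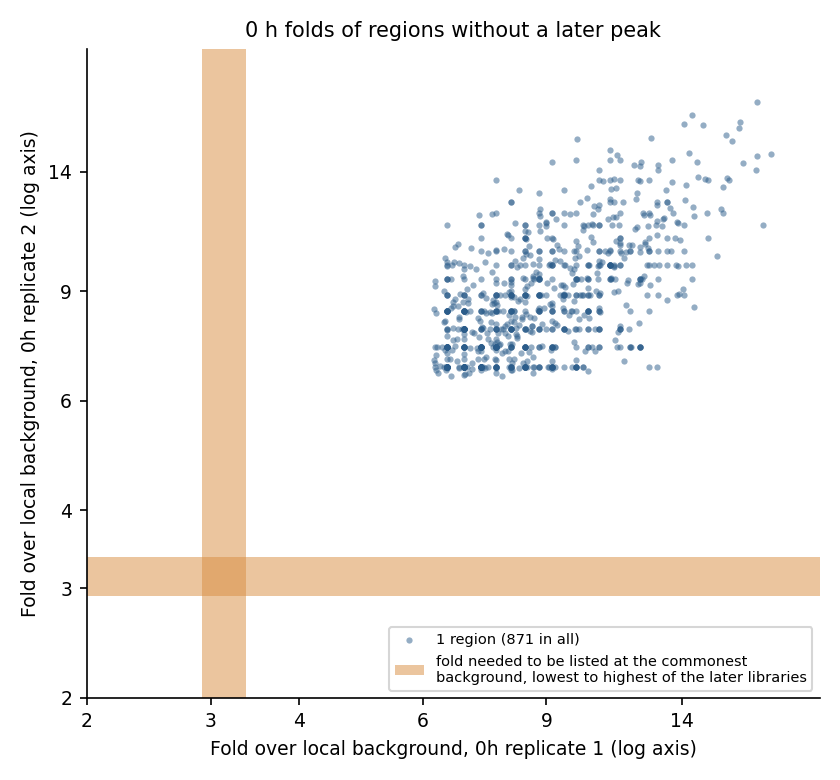
Each point is one of the 871 regions, placed by its fold over local background in 0h replicate 1 (horizontal, log axis) and 0h replicate 2 (vertical, log axis). The orange bands span the folds, 2.92 to 3.37, that a peak at the commonest background needed to be listed in the later libraries. All points lie above them, which the rule fixed, as it required at least the median fold of each 0 h list (6.23 and 6.58).

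The 10 strongest regions, ranked by the lower of their 0 h percentiles, had folds of 14.1 to 18.8 in replicate 1 and 14.9 to 18.1 in replicate 2. The first was 18:71374227-71374729 (hg19, as are all coordinates here), whose summit held 48 tags in replicate 1 and 34 in replicate 2, on peaks 503 and 417 bp wide. Its −log10 q was 48.6 and 38.2, its 0 h fold was 5.47 times the later limit, and the nearest peak in any later list lay 10279 bp away. X:91476319-91477074 had 57 and 38 tags on peaks of 756 and 597 bp, and 13:97577991-97578559 had 58 and 36 tags on peaks of 569 and 287 bp. The highest replicate 1 pileup among the 10 belonged to 2:58841236-58841891, with 67 and 35 tags and folds of 18.8 and 14.9. At 4:69885897-69886441 the folds were 15.04 and 16.6, at 1:80211682-80212064 14.5 and 17.2, and at 6:89506708-89507225 14.1 and 16.7. In these last 3 the higher fold was in replicate 2. At 5:29750443-29750941 the folds were 14.3 and 15.01. A weaker 0 h peak lay 265 bp from it, and the nearest later peak 8058 bp. The other members of the 10 were 3:75003610-75003965 with 44 and 33 tags and 18:28949321-28949822 with 45 and 29.

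Such strong regions were rare. Both 0 h percentiles reached 75 in 200 of the 871 (22.96%), 90 in 31 (3.56%) and 95 in 9 (1.03%), and the lower percentile was under 60 in 349 (40.1%). Read against all regions of the same strength, the 200 were 0.813% of 24615, the 31 were 0.358% of 8661 and the 9 were 0.230% of 3914. In steps of 10 percentiles of the lower 0 h value, the share without any later peak fell from 3.25% (349 of 10727) in the weakest step to 2.22%, 1.42%, 0.818% and 0.358% (31 of 8661) in the strongest. Near the limit, 6:4738894-4739226 was just inside with percentiles of 54.1 and 50.04, as were 4:37252053-37252587 with 65.0 and 50.05 and 3:161124978-161125254 with 50.06 and 54.3. Just outside were 2:112099048-112099310 with 49.96 and 53.9, 3:142034767-142035194 with 49.8 and 63.7, and 19:30638817-30639212 with 49.8 and 76.3. The limit is thus a line through a continuous range: 203 regions inside had a lower percentile of 50 to 55, and 258 regions outside had one of 45 to 50. With no limit on strength, 5901 of the 99494 regions with a peak in both 0 h lists had no later peak, or 5.93%.

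The 0 h libraries placed these regions at nearly the same base. Their summits lay 28 bp apart at the median, within 50 bp in 643 (73.8%) and within 100 bp in 847 (97.2%), and the largest distance was 242 bp. They ranked less alike in strength: Pearson's r between the percentiles in the 0 h libraries was 0.577 and Spearman's rho 0.548 over the 871. Over the 47412 prominent regions with a peak in all 6 libraries the values were 0.762 and 0.779. These correlations run across regions of the same libraries, and the range of strengths differs between the sets. The percentile was higher in 0h replicate 1 in 561 of the 871 (64.4%) and in 43.9% of the 47412. Replicate 1 is the deeper of the 0 h libraries, and the part of depth in this tilt was not tested.

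Most were simple, narrow peaks. Only 10 of the 871 held more than 1 peak in either 0 h list, or 1.15%, against 8.92% of the prominent regions with a peak in all 6. It was 5.64% in the prominent regions listed in both 1 h libraries but in neither of 24 h. Regions were joined from the peaks of all 6 lists, so a later peak could join 0 h peaks in these other sets but, by the rule, not in the 871. The part of this in the contrast was not tested. Median peak widths were 367 and 281 bp in the 0 h replicates. They were 480 and 368 bp in the 976 prominent regions listed in both 1 h libraries but in neither of 24 h, and 620 and 521 bp in the regions with a peak in all 6. Width rises with strength, so the sets were also compared within steps of strength. In the weakest step the replicate 1 medians were 330 bp for regions without any later peak, 416 bp for those that lost it after 1 h and 490 bp for those that kept it. In the strongest step they were 512, 587 and 681 bp. The order was the same in replicate 2, with 412, 461 and 599 bp in the strongest step. Strength and width at 0 h come from the lists that chose the regions, so these differences are descriptions.

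The widths spanned a wide range. The widest was 3:165671605-165672750, with peaks of 1044 and 780 bp holding 70 and 41 tags. 2:140259233-140260327 (1095 and 560 bp) and 16:23218692-23219582 (850 and 796 bp) were as broad but weaker, with 22 and 16 and with 24 and 15 tags. The narrowest were 18:46703545-46703711 (163 and 146 bp), 2:70854732-70854917 (186 and 124 bp) and 7:134393588-134393762 (175 and 152 bp). Each of these had 16 tags in replicate 1, the fewest of any of the 871 there.

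Pileup and background differed more between these sets than fold did. Median pileups were 25 and 17 tags in the regions without any later peak, 27 and 19 in those that lost it after 1 h, and 42 and 32 in those that kept it. Median folds were closer, at 8.58 and 8.50, 9.11 and 9.01, and 9.64 and 10.7. The local background at the summit had medians of 1.62 and 0.915 tags in the regions without any later peak, which is the commonest background of each library. It was 1.91 and 1.07 tags in those lost after 1 h and 3.12 and 1.81 in those kept. In replicate 1 the local background equalled the commonest one in 51.3% of the 871, in 32.8% of those lost after 1 h and in 15.2% of those kept. In replicate 2 these shares were 56.8%, 37.8% and 15.6%. Regions whose peak was gone by 1 h thus stood, more often than the other sets, on the background of the library as a whole. This comparison describes 0 h values and was not tested.

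Absence at 1 h and at 24 h went together. Of the 952 prominent regions without a peak in either 1 h library, 871 (91.5%, 95% Wilson interval 89.5 to 93.1%) had none at 24 h either, 65 (6.83%) had a peak in a single 24 h library and 16 (1.68%) in both. Of the 1060 with a peak in a single 1 h library, 638 (60.2%) had none at 24 h, and of the 50118 with a peak in both, 976 (1.95%) had none. These intervals count regions and do not cover differences between libraries. The share of the 952 still without a peak at 24 h was 88.1% in the weakest step of 0 h strength and 91.9%, 94.6%, 97.7% and 96.9% in the steps above it. Without 1h replicate 2, when a region had to lack a peak in only 1 library of 1 h, the share was 78.2%. Leaving out 0h replicate 1 gave 1578 regions in place of 871 and leaving out 0h replicate 2 gave 1524, since a single 0 h library then had to be prominent.

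**Figure D2:**
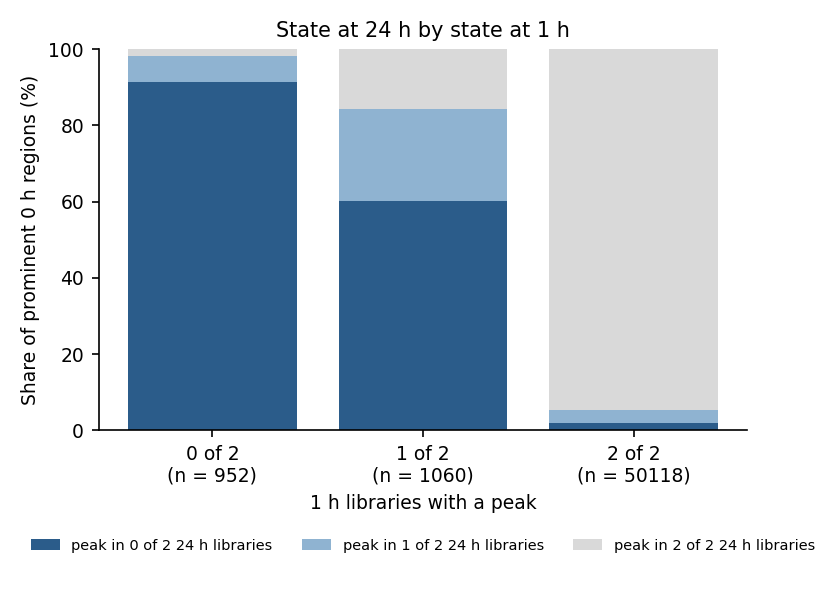
Bars give the share (%) of prominent 0 h regions with a peak in 0, 1 or 2 of the 24 h libraries, for regions with a peak in 0, 1 or 2 of the 1 h libraries (n under each bar). Regions without a 1 h peak were without a 24 h peak in 91.5% of cases and those with a peak in both 1 h libraries in 1.95%.

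In 16 regions without a 1 h peak, both 24 h libraries held a peak again. The rule sets a minimum strength at 0 h and none at 24 h, so their folds are given only as a description, for the 5 strongest at 0 h. The region 6:51602461-51602818 had folds of 8.82 and 11.2 at 0 h, no peak at 1 h and folds of 5.78 and 4.09 at 24 h. At 3:46098182-46098600 the folds were 10.9 and 8.54 at 0 h and 3.85 and 4.60 at 24 h, and at 11:91289347-91289926 11.5 and 7.83 and then 4.33 and 4.60. At 3:145807193-145807630 they were 10.7 and 7.83 and then 4.33 and 5.62. 1:248567400-248567651 was at 7.11 and 8.44 at 0 h and 7.88 and 5.37 at 24 h, so its 24 h libraries overlapped its 0 h ones. Folds of different lists are set side by side here and their levels depend on each library's background.

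Other prominent regions missed the rule through a single later library. Exactly 1 later library held a peak in 703 of them, and that peak was weak, with a median percentile of 22.1 in its list (5th to 95th percentile 5.00 to 50.3). It reached the 50th percentile in 37 of the 703. It was in 1h replicate 1 in 311 regions, in 1h replicate 2 in 327, in 24h replicate 1 in 15 and in 24h replicate 2 in 50, so it was mostly a 1 h peak. The reverse patterns were rarer. Of the 40556 regions prominent in both 1 h and both 24 h lists, 33 had no peak at 0 h. Of the 45720 prominent in both 24 h lists, 107 had no peak at 0 h or 1 h, and of the 49462 prominent in both 1 h lists, 3 had none at 0 h or 24 h. List lengths and depths differ between the libraries, and their part in these counts was not tested. When all lists were cut to 1 length, 723 regions met the rule.

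The 871 were spread over all 23 chromosomes, at unequal rates. Chromosome 13 had the highest share of its prominent regions among them, 3.42% (47 of 1376, 95% Wilson interval 2.58 to 4.51%). It was followed by chromosome 4 with 2.96% (79 of 2666), chromosome 5 with 2.33% (68 of 2920), chromosome 21 with 2.24% (14 of 626) and X with 2.17% (32 of 1472). The lowest shares were on chromosome 19 with 0.322% (6 of 1866, 0.147 to 0.70%), chromosome 17 with 0.468% (9 of 1924), chromosome 22 with 0.547% (5 of 914) and chromosome 16 with 0.831% (13 of 1564). The chromosomes were ranked on the counts that the rule gives, and regions of the same libraries are not independent, so the order is a description. Counted per Mb spanned by regions, chromosome 13 was again first with 0.489 and chromosome 19 last with 0.102, while X moved from 5th to 17th place with 0.206 per Mb. Among the regions of chromosome 13 without a 1 h peak, 47 of 48 (97.9%) had none at 24 h. On chromosome 14 it was 33 of 33.

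**Figure D3:**
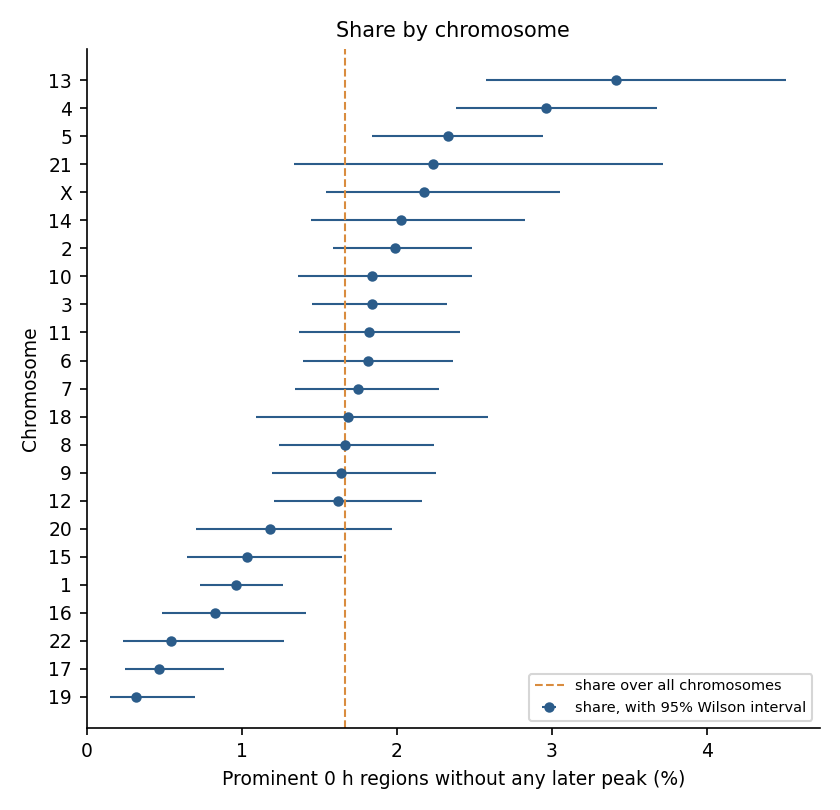
Points give, for each chromosome (vertical), the share (%) of its prominent 0 h regions that had no peak at 1 h or 24 h, with 95% Wilson intervals as bars that cover counting only. The dashed line is the share over all chromosomes, 1.67%, with chromosome 13 at 3.42% and chromosome 19 at 0.322%.

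Across the 23 chromosomes, the share went down as the number of prominent regions per Mb went up (Pearson's r = −0.768, Spearman's rho = −0.766). It went up with the share of prominent regions that lost their peak after 1 h (r = 0.774, rho = 0.755). The number of prominent regions is the denominator of the share and also sets the number per Mb. The share that lost their peak after 1 h has the same denominator. Both correlations are therefore between linked quantities, and the part of this link was not tested. Chromosomes share libraries and base composition is uneven among them, so these values describe the lists. The same order was seen on a smaller scale. Where a prominent region had 1 to 23 other regions within 250 kb, 3.46% (350 of 10113) had no later peak. With 24 to 31 others it was 2.01%, with 32 to 39 1.33%, with 40 to 48 0.964%, and with 49 to 115 0.695% (73 of 10506). For regions that lost their peak after 1 h, the share over the same steps fell from 2.79% to 1.16%. The median lower percentile at 0 h was between 71.9 and 74.6 in all 5 steps, so the steps were similar in rank of fold. Their pileups and local backgrounds were not compared.

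The nearest region of any kind lay 5132 bp away at the median, against 5840 bp for prominent regions with a peak in all 6 libraries. Over 250 kb on either side there were fewer other regions, with medians of 26 and 37, and the nearest region with a peak in all 6 was farther, at 17182 bp against 11290 bp. For the regions lost after 1 h these medians were 5060 bp, 30 regions and 14888 bp. The nearest later peak lay 6425 bp from the 871 at the median. A later peak lay within 100 bp of 11 of the 871, within 500 bp of 82 (9.41%), within 1000 bp of 141 (16.2%) and within 5000 bp of 374 (42.9%), with no comparison set for these counts. When peaks within 500 bp of each other were joined, 785 regions met the rule. The most isolated was 1:106677305-106677572, with 119657 bp to the nearest region, 22 and 12 tags and folds of 8.78 and 6.79. It was followed by 2:123804847-123805049 at 85888 bp, with folds of 6.49 and 7.83, and 16:78708853-78709565 at 76919 bp, with folds of 9.93 and 10.8.

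Prominent regions near one of the 871 belonged to the set more often than prominent regions overall. Of the 290 prominent regions within 10 kb of one of the 871 (a region not being counted as near to itself), 26 were members of the set too, or 8.97%. Within 50 kb it was 71 of 1478 (4.80%) and within 250 kb 222 of 6757 (3.29%), against 1.67% over all prominent regions and 1.21% (382 of 31490) beyond 1 Mb. The number of other regions within 250 kb was alike, with medians of 33 to 34 near a member and 36 over all. Regions that lost their peak after 1 h made up 3.10%, 3.59% and 2.59% within these distances and 1.87% over all. Both partners of a close pair are counted in these shares, which rest on the rule itself and were not tested. Most of the 871 were alone. The nearest other region of the set was 819950 bp away at the median, 800 had none within 50 kb, and 71 formed 31 pairs and 3 groups of 3.

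**Figure D4:**
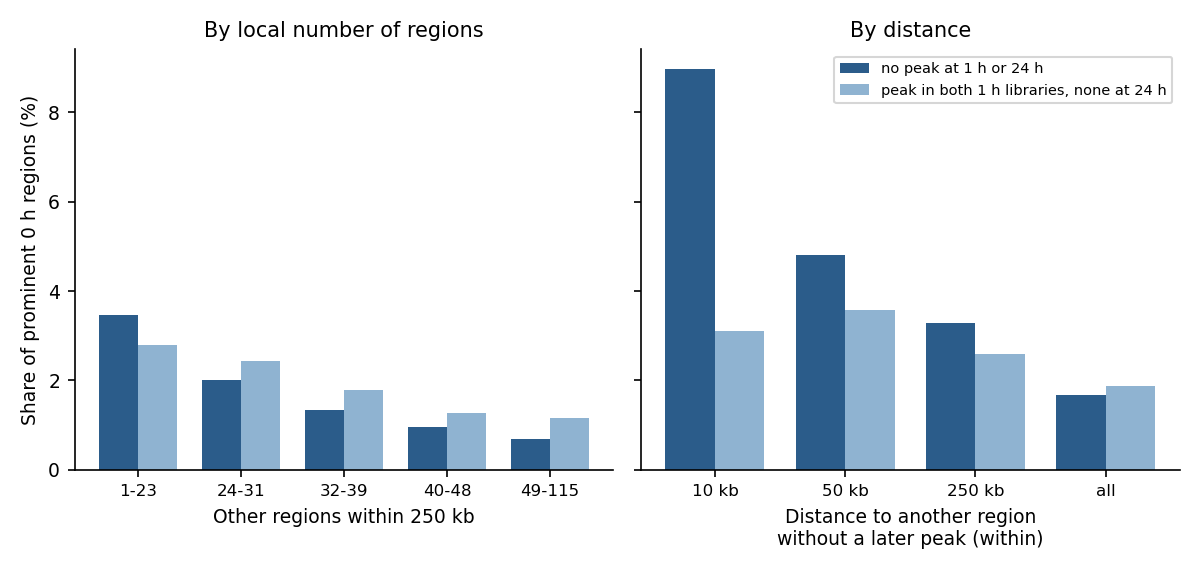
Bars give the share (%) of prominent 0 h regions without a peak at 1 h or 24 h (dark) and with a peak in each 1 h library but none at 24 h (light). At left they are set by the number of other regions within 250 kb, where the dark bars fall from 3.46% to 0.695%, and at right by distance to another region without a later peak, from 8.97% within 10 kb to 1.67% over all.

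The 3 groups of 3 differed in what lay between their members. On chromosome 8, 8:85712226-85761313 (49.1 kb) held 5 regions, of which 3 were prominent at 0 h, and all 3 of these lost their peak by 1 h. Their folds in the 0 h replicates were 7.68 and 8.35 at 8:85712226-85712742, 10.4 and 11.5 at 8:85742520-85742991 and 10.7 and 12.3 at 8:85760743-85761313. On chromosome 1, 1:239170329-239205019 (34.7 kb) held 6 regions and 4 prominent ones, and the 4th had a peak in all 6 libraries. The folds of its 3 members were 11.6 and 10.2 at 1:239170329-239170816, 6.75 and 10.7 at 1:239198448-239199309 and 8.25 and 8.74 at 1:239204444-239205019. On chromosome 5, 5:158282507-158332667 (50.2 kb) held 9 regions and 4 prominent ones, again with 1 that had a peak in all 6. Its members were weaker, with folds of 6.25 and 9.16, 11.4 and 7.75, and 9.16 and 7.31.

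Counted in windows of 1 Mb, the 871 fell in 697 windows, and 24 windows held 3 or more (80 regions in all). The fullest were picked after their counts were seen. 8:85000001-86000000 held 7 of its 20 prominent regions (35.0%), while 9 had a peak in all 6 libraries and 3 lost it after 1 h. Besides the 3 above, its members were 8:85228659-85229011, 8:85628032-85628509, 8:85918291-85918851 and 8:85990951-85991485. Of these, 8:85918291-85918851 was the strongest by fold in both replicates, with 13.6 and 12.01, and 8:85990951-85991485 had the most tags, 51 and 29. The window 4:69000001-70000000 held 5 of 25, with 18 of the others kept in all 6. Its members ranged from 4:69344605-69344959, with folds of 6.87 and 7.83, to 4:69885897-69886441, named among the strongest above. In 5:29000001-30000000 it was 4 of 12 (33.3%), and these were strong: the replicate 1 folds were 18.3 at 5:29521308-29521773, 14.3 at 5:29750443-29750941, 16.0 at 5:29860035-29860603 and 14.6 at 5:29944423-29944933. Replicate 2 gave 11.5, 15.01, 13.2 and 8.50 in the same order. In 1:239000001-240000000 it was 4 of 31 (12.9%), with 21 kept in all 6. Thus no window lost all of its prominent regions among these 4, and regions kept in all 6 libraries lay in each.

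Neighbouring regions that kept a peak throughout were followed through their own folds, which were not among the values that chose the 871. For each, the nearest region with a peak in all 6 libraries was taken, if within 100 kb. That gave 818 neighbours, 793 of them distinct. Neighbours within 2 kb were not removed, and the nearest region of this kind lay as close as 54 bp. The local background of such close neighbours can take in the 0 h peak of the member. Their folds, and so part of the tested values, are not independent of the rule. A neighbour that lost its peak in any library is left out by this choice, so the values speak only of neighbours that kept theirs. Their median within-list percentile of fold was 68.3 and 68.9 in the 0 h libraries, 65.9 and 69.3 in those of 1 h, and 64.4 and 68.5 in those of 24 h. The 1 h libraries lay on both sides of the 0 h ones, and both 24 h libraries lay below 68.9, with 1 of them above 68.3. The mean shift from 0 h was −0.97 percentile points at 1 h (exact two-sided permutation p = 1, adjusted 1 over 2 comparisons). At 24 h it was −2.13 points (exact two-sided permutation p = 0.667, adjusted 1). Over all 72695 regions with a peak in all 6 libraries, the shifts were −0.06 and −2.55 points. For the nearest such neighbours of prominent regions with a peak in all 6, they were 0.31 and −2.05. These are shifts of library medians. Followed region by region, the 818 had a median shift of 0.81 points at 1 h, where 376 (46.0%) were lower. At 24 h it was −0.77 points, with 437 (53.4%) lower. Over all 72695 regions these region-by-region medians were 0.41 and −1.12 points. The smallest p that 2 against 2 libraries allow in this exact permutation test is 0.333, so it cannot pass a threshold of 0.05. The sign of the neighbours' small shifts in library medians also depended on how the lists were ranked or shortened.

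Directly beside the lost peaks the ranks of kept regions were higher at the later times. There were 88 regions with a peak in all 6 libraries within 2 kb of one of the 871, a distance picked after the data were seen. Their median percentile of fold was 51.0 and 54.4 in the 0 h libraries, 61.3 and 62.9 in those of 1 h, and 55.7 and 58.2 in those of 24 h. Both later times lay above both 0 h libraries, by 9.42 points at 1 h and 4.30 points at 24 h on average. Fold is a ratio to a local background whose window can take in the adjacent 0 h peak, and that peak is present at 0 h and absent later by the rule. These ranks are therefore not independent of the rule and are given as a description with no test. Without 0h replicate 1 the shifts were 4.24 and 1.04 points, and without 0h replicate 2 they were 9.90 and 7.32. Without 24h replicate 1 the shift at 24 h was 2.53 points. Both 1 h percentiles were above both 0 h ones in 39 of the 88 (44.3%), against 23.4% of all regions with a peak in all 6. Both 24 h percentiles were above in 37 (42.0%), against 20.0% of all such regions. Both later percentiles were below both 0 h ones in 5 of the 88 at 1 h and in 15 at 24 h. Over all such regions these shares were 19.2% and 26.4%. The 88 ranked lower at 0 h, at 52.7 against 67.9 over all such regions, and sets of like rank were not compared.

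The pileups of the same 88 regions did not rise with their ranks. The median pileup at the summit of the 88, in units of the library's commonest background, was 15.1 and 21.7 in the 0 h libraries, 15.7 and 15.9 in those of 1 h, and 16.7 in both of 24 h. The later libraries lay between the 0 h ones. The local background at the same summits, in the same units, was 1.73 and 1.77 in the 0 h libraries, 1.49 and 1.50 in those of 1 h, and 1.22 and 1.23 in those of 24 h. It was lower at 1 h than at 0 h and lower still at 24 h, and it too is not independent of the rule. Over all regions with a peak in all 6, its mean was 1.78 at 0 h, 1.80 at 1 h and 1.77 at 24 h. A higher percentile of these 88 is thus not a higher pileup. Between 2 and 10 kb the percentile shifts were −1.20 and −1.75 points over 281 regions, and at 10 to 50 kb they were −0.26 and −3.16 over 1496.

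**Figure D5:**
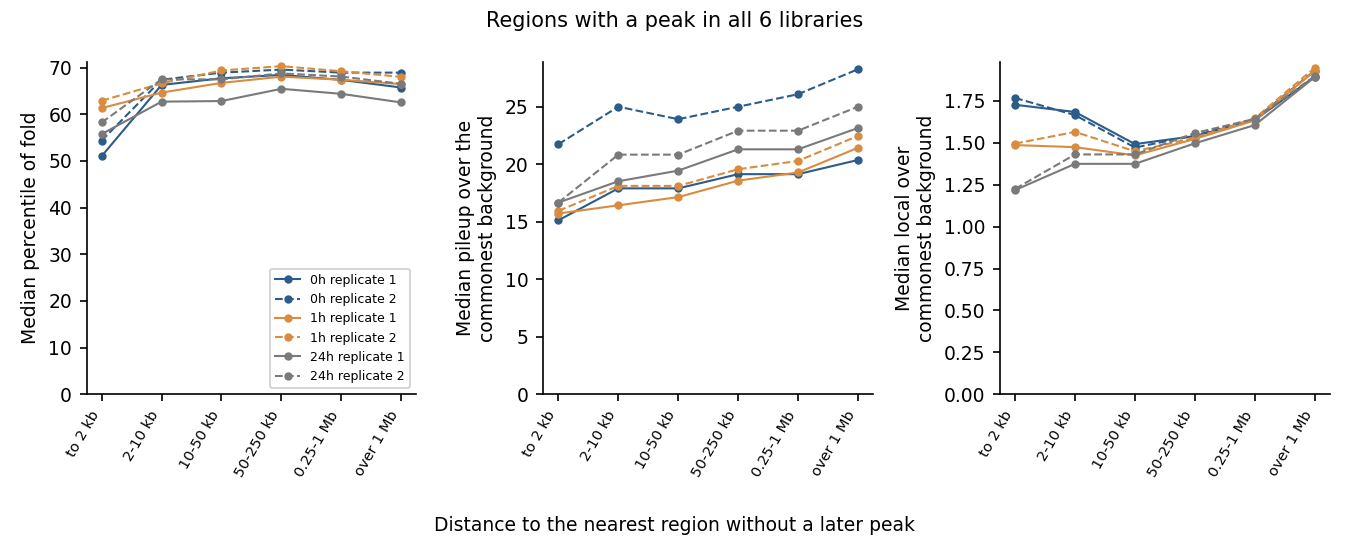
Lines give, for each library, the median of regions with a peak in all 6 libraries by their distance to the nearest region without a later peak: percentile of fold (left), pileup at the summit over the library's commonest background (middle) and local over commonest background (right). Within 2 kb the 1 h and 24 h percentiles, 55.7 to 62.9, lie above the 0 h values of 51.0 and 54.4, the pileups do not, and the later local backgrounds, 1.22 to 1.50, lie below the 0 h values of 1.73 and 1.77.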

How the data were processed

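The tools named in the submitters' processing notes are Bowtie2, fastp, FastQC and MACS2, with the build hg19 and no versions. Peaks were called per library, as the deposited lists show. The authors deposited for each peak a fold (ratio to local background), −log10 p and −log10 q, and a score, which was not used. Peaks overlapping by 1 bp were merged on the 22 autosomes and X, and folds were ranked within each list, with the highest peak per region taken. A whole pileup was recovered from the deposited fold and −log10 p under MACS2's formulas, with a tolerance of 0.001 in −log10 p, for 100% of peaks. Background depth is the commonest background pileup per kb of the shortest listed peak, taken as the caller's fragment length, and was not measured from reads.

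The members, lists and tests were chosen with earlier results of these data known. The regions named are the 10 strongest, 3 nearest inside and 3 nearest outside the limit, 3 widest, 3 narrowest, 3 most isolated, those of the 3 densest clusters and the 5 strongest with a peak back in both 24 h libraries. Windows of 1 Mb, the 2 kb distance and its measures were added after the data were seen. Exact permutation tests compared medians per library. The replicate numbers are not explained by the labels, and the differences between replicates of different times correlated at 0.042, 0.047 and 0.017 across 72695 regions, so libraries were not paired. Motifs, base composition, gene names and cell type markers had been planned; an hg19 genome and annotation would be needed for them, so they were not analysed here and no region is assigned to a gene. The calculations were tested on simulated lists. Python 3.11.15, numpy 2.4.6, pandas 2.3.3, scipy 1.17.1 and matplotlib 3.10.9 were used.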

Additional observations from a re-analysis of the deposited data

How the results depend on the processing

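The number of regions moved with the rule, from 871 to 1503 and 522 and 200 with percentiles of at least 40, 60 and 75, to 1814 when only later peaks with −log10 q of at least 5 counted, and to 886 to 1578 when a library was left out. It was within 1.5 times of 871 when ranked by −log10 q (693), with peaks within 500 bp merged (785), with 500 bp summit windows (874) and with lists of one length (723). As a replicate block, the rule within same-numbered libraries gave 3631 regions in either number. The share still without a peak at 24 h was 93.9% and 96.2% with percentiles of at least 60 and 75, 88.7% with the −log10 q of at least 5, 86.3% in summit windows and 78.2% to 96.7% without a library. The neighbours' shift at 1 h turned positive when ranked by −log10 q (0.041) and with lists of one length (1.35), and ran from −2.10 to 1.24 without a library, positive without 1h replicate 1 (1.24). At 24 h it turned positive at 75 (0.40), when ranked by −log10 q (0.64) and with lists of one length (2.04), and ran from −5.06 to −0.75 without a library. Paired by number in a replicate block, the shifts were −0.97 (exact permutation p = 1) and −2.13 (exact permutation p = 0.5). Median width, 323 bp over the 0 h libraries, was 388 bp at 75 and 232 to 338 bp without a library. The share within 50 kb was 2.70% at 75, 3.38% when ranked by −log10 q, 7.36% with the −log10 q of at least 5 and 4.84% to 5.75% without a library. That of chromosome 13 was 2.52% at 60, 6.47% with the −log10 q of at least 5 and 3.42% to 4.58% without a library. The share over all prominent regions moves with these settings too, as the numbers of regions above show. It is not given here for each setting, so these values do not tell whether the excess over it changed. The shifts within 2 kb were positive in all 14 alternatives, at 4.24 to 15.9 points (1 h) and 1.04 to 18.8 points (24 h). Some settings for shares, widths and shifts were added after the data were seen. Depth limits what absence means, since a peak below 5 to 6 tags could not be listed.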
